A study of Mus musculus with 10 samples.

Results

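The comparison set out here is between 2 control vectors, a mutated miR-342-3p hairpin and a scramble sponge, in mouse cells named iKCs by the labels. The members were chosen by their titles and are 4 of the 10 libraries analysed here, 2 with the mutated miR-342-3p control and 2 with the scramble control sponge. The other 6 libraries carried the miR-342-3p sponge (n = 3) or the vector for miR-342-3p overexpression (n = 3). All 10 libraries came from the same line, as viable cells sorted for the fluorescent protein mOrange, and the labels give no further genotype, treatment or time. Replicates are called biological, with no account of separate cultures, and p-values measure only the spread between these libraries. Both groups are controls, and the comparison asks how far they differ where the labels name no difference but the vector.

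MicroRNAs are short RNAs that are cut from hairpin transcripts and repress messenger RNAs that carry matches to bases 2 to 8 of the microRNA, the seed. A hairpin vector overexpresses a microRNA, and its usual control is the same hairpin with a changed mature sequence. A sponge is a transcript with many binding sites that soaks up a microRNA, and its usual control carries scrambled sites. Macrophages, the cell type that the study's title names, answer foreign or double-stranded nucleic acid with interferon-stimulated genes, secreted protein load with endoplasmic reticulum chaperones, and oxidants with the transcription factor NRF2.

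The labels of both hairpin groups name miR-342-3p, so the sequences that define its natural hairpin are given. They are from RefSeq (build GRCm38.p6, chr12:108658620-108658718, plus strand), and the bases changed in the mutated version were not analysed here. In the mature forms the capitals mark the seed, and in the hairpin they mark both mature arms.
mmu-miR-342-3p: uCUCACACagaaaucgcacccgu
mmu-miR-342-5p: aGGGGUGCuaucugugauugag
Mir342 hairpin: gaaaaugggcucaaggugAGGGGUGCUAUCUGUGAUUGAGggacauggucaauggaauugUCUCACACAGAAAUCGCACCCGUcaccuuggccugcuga

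The total was 33857272 and 57707734 counts in the scramble libraries and 47004171 and 41333662 in the mutated control libraries, within the range of 25712732 to 59259988 over all 10. All 12 macrophage markers exceeded 1 CPM (counts scaled to a common library size) in each of the 4 control libraries, and their sum was 6621 to 7325 CPM. Of 12 Kupffer cell markers, 8 exceeded 1 CPM in each control library. Clec4f and Timd4, which define resident Kupffer cells, had 0 counts in all 10 libraries, and Vsig4 was at most 0.093 CPM. The mitochondrially encoded share of counts was 1.31% to 1.48% in the 4 control libraries. The share taken by Rn18s-rs5, a ribosomal RNA repeat, was 0.134% and 0.0938% in the mutated control, 0.0917% and 0.07% with scramble, and 0.0557% to 0.0683% in the other 6 libraries. That share moved with the group, and its part in the results was not tested. The median SD of log2 CPM within a group, over genes at a mean level of 2 or more on the log2 CPM scale, was 0.047 for scramble, 0.037 for the mutated control, 0.093 for the sponge and 0.11 for overexpression. The control pairs were thus tighter than the groups with which they share an estimate of the spread.

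The Mir342 gene checks the labels of the vectors. Mir342 had 136 and 133 counts in the mutated control libraries, or 2.86 and 3.22 CPM, and 0 in both scramble libraries. A count of 0 allows up to 0.0892 and 0.0518 CPM in them at a floor of 3 counts per library. Against the mean of those floors, the mutated control was at least 43.1-fold higher (3.04 ± 0.256 CPM, SD, n = 2, edgeR adjusted p = 0.00332), and the adjusted p was 0.0682 without scramble replicate 2. The overexpression libraries had 487, 483 and 242 counts (9.64 ± 1.54 CPM, SD, n = 3), and the 3 sponge libraries had 0. Every hairpin library therefore had reads over Mir342 and no sponge-type library did. The RNA was polyadenylated, so these reads stand for transcripts that hold a hairpin and not for mature microRNA, and how reads of the mutated version align to this locus was not tested. Evl, the gene within which Mir342 lies, had 86.8 and 88.7 CPM with scramble and 83.9 and 90.8 CPM with the mutated hairpin, a log2 fold change of −0.01 (SE 0.09). Evl levels of the groups overlapped.

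Beyond the hairpin, the paired immunoglobulin-like receptor genes Pira12 and Lilra6 and the interferon-induced GTPase gene Tgtp2 fell in the mutated control. The edgeR threshold, an adjusted p under 0.05, was passed by 4 of 15767 genes (0.0254%), with 1 higher and 3 lower. At an unadjusted p under 0.05 there were 1020 genes, or 6.47%, of which 445 were higher and 575 lower. DESeq2 (Wald test, the same counts) passed 31 genes as higher (0.197%) and 59 as lower (0.374%), and limma-voom passed 4. With only the 4 control libraries in the edgeR fit, 293 of 15157 genes passed as higher (1.93%) and 281 as lower (1.85%). That fit has only 2 libraries a group to estimate the spread. All 4 called genes and all 90 DESeq2 genes were among those 574. The count of 4 fell to 0 without scramble replicate 2 and to 1 without scramble replicate 1 or either mutated control library. It fell to 2 without sponge replicate 1 or 2, and it rose to 9 without overexpression replicate 3 and to 36 without overexpression replicate 1. Among the 10320 genes at that mean level or above, 28 differed by at least 1.5-fold, 21 higher and 7 lower.

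**Figure D1:**
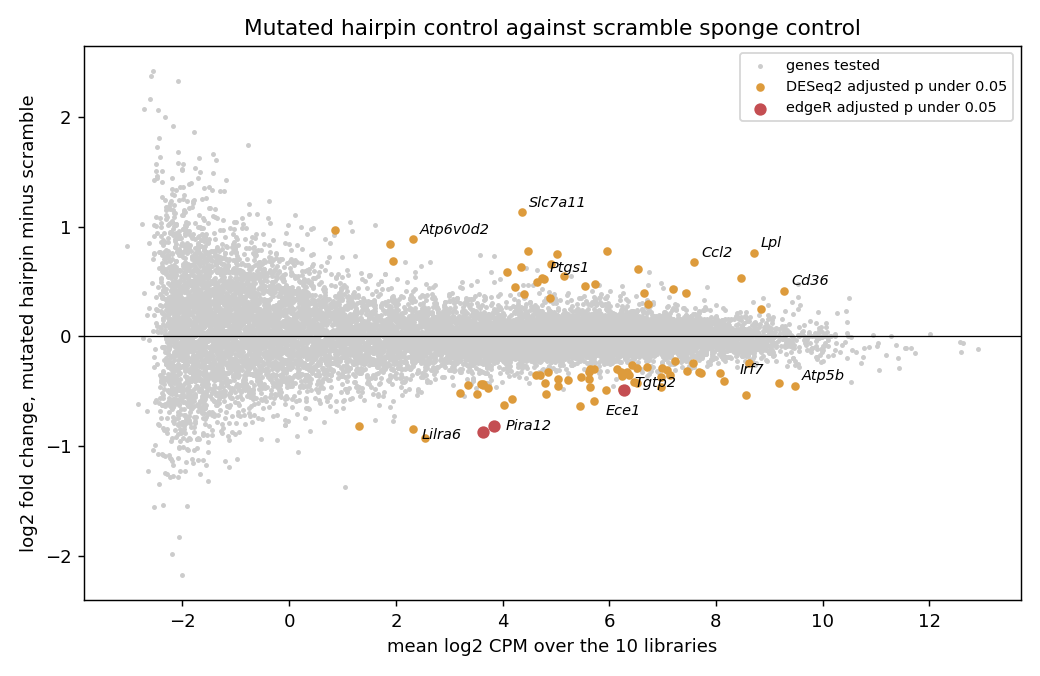
Log2 fold change of the mutated hairpin control over the scramble sponge control (y axis) against mean log2 CPM over the 10 libraries (x axis), with 1 point per tested gene and Mir342 left out. Of the genes past the edgeR threshold, the 3 shown are lower, whereas the 90 past the DESeq2 threshold lie on both sides of 0.

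The mutated control libraries stood apart from all others more often than the scramble libraries did. Both mutated control libraries lay above the other 8 in 1016 genes (6.44%) and below them in 1000 (6.34%). Both scramble libraries lay above the other 8 in 212 genes (1.34%) and below them in 176 (1.12%). Of the 90 genes passed by DESeq2, the mutated pair was outermost in 73, above in 23 and below in 50. The scramble pair was outermost in 15 of the 90, above in 11 and below in 4. The 90 genes were picked by the difference between these same control libraries, which itself tends to place a control pair outermost. Their counts therefore describe the picked genes and are not a separate test of which pair stood apart.

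Paired immunoglobulin-like receptors are surface proteins of myeloid cells in which activating PIR-A forms face an inhibitory PIR-B form that binds MHC class I. Pira12, an activating receptor gene of the family, had 16.4 and 17.2 CPM with scramble and 9.79 and 9.31 CPM in the mutated control. It was 1.76-fold lower (log2 fold change −0.82, SE 0.09, edgeR adjusted p = 0.0132). The sponge libraries were at 17.0 to 17.4 CPM and the overexpression libraries at 12.1 to 14.1 CPM, so the 2 mutated control libraries were the lowest of the 10. Lilra6, its neighbour in the same family, had 15.3 and 14.9 CPM with scramble and 8.46 and 8.03 CPM in the mutated control, and was 1.83-fold lower (−0.87, SE 0.10, edgeR adjusted p = 0.025). Here, too, the mutated control libraries were the lowest of the 10. Without any 1 of the 4 control libraries neither gene passed, with edgeR adjusted p-values of 0.133 to 0.417 for Pira12 and 0.275 to 0.467 for Lilra6, and Lilra6 had 0.0529 without sponge replicate 1 and 0.0606 without sponge replicate 2.

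These genes belong to 1 cluster on chromosome 7, and every member with enough reads had a lower level in the mutated control. The cluster was looked at after the calls were seen, and Pira1, Pira13, Gm10693 and Pira2-ps1 were named after their values were seen. Coordinates are those of the deposited table, whose header names GENCODE vM30, while the processing notes name the build GRCm38. In them the cluster runs from 3714408 to 3918502 and holds Pirb, Pira1, Pira2-ps1, Pira13, Pira2, Gm10693, Pira12 and Lilra6. All 8 had a log2 fold change below 0, from −0.92 to −0.33 with a median of −0.65. The 13 tested neighbours within 100000 bases on either side ranged from −0.31 to 0.65 with a median of 0.02. Pirb, the inhibitory receptor, had 303.0 and 294.4 CPM with scramble and 237.4 and 238.2 CPM in the mutated control (−0.33, SE 0.06, edgeR adjusted p = 0.143). Pira2 had 63.7 and 70.2 CPM against 49.7 and 45.8 CPM (−0.49, SE 0.11, edgeR adjusted p = 0.25), and Pira13 had 7.02 and 7.58 CPM against 3.82 and 3.90 CPM (−0.92, SE 0.17, edgeR adjusted p = 0.143). The groups of these 3 genes did not overlap, and DESeq2 passed them (adjusted p = 4.23e-05, 0.0225 and 0.000888), but edgeR did not. Pira2-ps1, a pseudogene, had 0.416 and 0.397 CPM against 0.231 and 0.363 CPM. Some members share stretches of sequence. Of the 50-base windows in the GENCODE vM21 transcripts of Lilra6, 27.9% also occur in another member, as do 32.3% for Pira2, 26.5% for Pirb, 18.1% for Gm10693 and 0.0% for Pira1, and Pira12 and Pira13 were not matched there. Counts of members that share sequence are therefore uncertain, and the part of shared reads in their values was not tested.

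**Figure D2:**
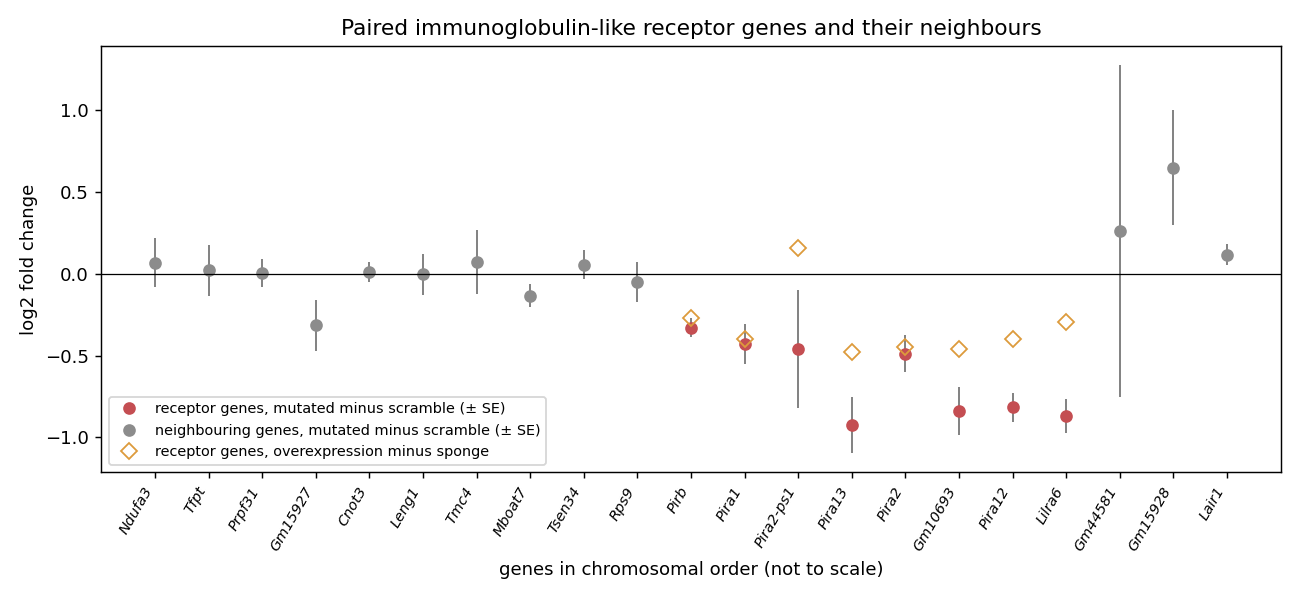
Log2 fold change (y axis) of the tested genes in and around the receptor cluster in chromosomal order (x axis). Circles with standard error bars give the mutated control minus scramble and open diamonds give overexpression minus sponge for the receptor genes, and all 8 circles of the cluster lie at or below −0.33 while the median neighbour is at 0.02.

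Tgtp2, an interferon-induced GTPase of the family that attacks the vacuoles of intracellular parasites, had 84.0 and 84.7 CPM with scramble and 57.9 and 62.2 CPM in the mutated control. It was 1.41-fold lower (−0.49, SE 0.07, edgeR adjusted p = 0.0451). The sponge libraries were at 82.0 to 85.2 CPM and the overexpression libraries at 74.6 to 79.3 CPM, so the mutated control libraries were the lowest of the 10. The edgeR adjusted p was 0.467 to 0.903 without any 1 of the control libraries, 0.169 and 0.0902 without sponge replicate 1 or 2, 0.0947 without overexpression replicate 2, 0.0525 with RLE and 0.0511 with upper quartile factors. Gbp6, a guanylate-binding protein induced by interferon, had 85.9 and 87.9 CPM with scramble and 61.0 and 63.8 CPM in the mutated control. That difference did not pass edgeR (−0.48, SE 0.07, adjusted p = 0.0796), although DESeq2 passed it (adjusted p = 6.27e-06).

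Type I interferon response genes, which cells induce to limit viruses and other intracellular microbes, were nearly all lower in the mutated control. Of its 45 tested members, 44 were lower in the mutated control, with a median log2 fold change of −0.21, against a median of 0.00 and 50.5% above 0 over all tested genes. None of the 45 passed edgeR, 5 passed DESeq2 as lower (0.374% of all genes), and 30 passed as lower with only the 4 control libraries (1.85% of all genes). The 2 groups did not overlap in 43 members, all lower, where 24.2% of all tested genes were lower and 24.1% higher without overlap. The mutated control libraries were the lowest of all 10 in 22 of the 45 (6.34% of all genes). Irf7, the factor that amplifies interferon production, had 665.8 and 632.8 CPM with scramble and 474.3 and 494.8 CPM in the mutated control (−0.42, SE 0.09, edgeR adjusted p = 0.205). Ifit1, which binds foreign RNA ends, had 100.1 and 101.0 CPM against 72.9 and 77.2 CPM (−0.42, SE 0.07, edgeR adjusted p = 0.125). Ifi44, a further interferon-stimulated gene, had 232.2 and 227.8 CPM against 176.7 and 189.4 CPM, and Iigp1, a GTPase related to Tgtp2, had 161.8 and 158.5 CPM against 116.3 and 134.5 CPM. Each of these 4 genes passed DESeq2 and none passed edgeR.

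The median of the interferon list lay between −0.25 and −0.18 when any 1 library was left out. In overexpression minus sponge, which shares no library with the control comparison, the same 45 genes had a median of −0.04, with 16 above 0. Related lists also had mostly negative values, but the nucleic acid sensing list shares Irf7 with the interferon list and is not separate from it. Of 22 nucleic acid sensing genes, 16 were below 0 with a median of −0.11, which moved from −0.15 without mutated control replicate 2 to −0.08 without replicate 1. Of 23 genes of MHC class I presentation, 20 were below 0 with a median of −0.15, and 17 were lower without overlap (24.2% of all genes). H2-T22, a non-classical class I molecule, had 200.03 and 188.2 CPM with scramble and 154.1 and 157.2 CPM in the mutated control (−0.32, SE 0.08, edgeR adjusted p = 0.32). Tap1, which carries peptides into the endoplasmic reticulum, had 382.3 and 394.1 CPM against 327.2 and 336.6 CPM (−0.23, SE 0.07, edgeR adjusted p = 0.553). No member of either list passed edgeR.

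Promoters of the interferon genes are shown for Tgtp2, the called gene, and for Ifit1, the member with the lowest p on the list, because both carry the core of the element bound by IRF factors. They are RefSeq sequences of build GRCm38.p6, from 250 bases before to 50 after the gene start, 5′ to 3′ on the gene's strand. The capitals mark GAAANNGAA on either strand, a motif added after seeing the data.
Tgtp2 (chr11:49064163-49064462, minus strand): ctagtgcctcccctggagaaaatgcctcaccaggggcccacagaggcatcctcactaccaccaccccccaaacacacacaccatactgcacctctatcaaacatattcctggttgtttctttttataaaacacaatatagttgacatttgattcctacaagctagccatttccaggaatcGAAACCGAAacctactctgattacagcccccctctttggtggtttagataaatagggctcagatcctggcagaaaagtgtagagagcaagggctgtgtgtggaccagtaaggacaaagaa
Ifit1 (chr19:34640639-34640938, plus strand): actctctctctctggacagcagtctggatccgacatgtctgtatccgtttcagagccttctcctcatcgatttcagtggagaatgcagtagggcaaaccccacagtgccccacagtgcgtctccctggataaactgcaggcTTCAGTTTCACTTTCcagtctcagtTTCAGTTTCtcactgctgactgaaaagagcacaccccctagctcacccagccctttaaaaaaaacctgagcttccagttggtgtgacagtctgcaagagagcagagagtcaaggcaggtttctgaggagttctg
The Tgtp2 promoter holds 1 match that starts 70 bases before the gene start. The Ifit1 promoter holds 3 on the opposite strand, 2 of them overlapping, which start 109, 103 and 84 bases before the gene start. The motif stood in 21 of the 33 interferon list promoters that the table holds (63.6%), in 9 of 41 promoters of genes that DESeq2 passed as lower, in 3 of 21 of those passed as higher (14.3%) and in 926 of 10523 tested genes with a promoter (8.8%). Irf7 had no match in this window.

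Apart from Mir342, no gene passed edgeR as higher in the mutated control, and the 3 described next are among the 5 with the smallest p by the naming rule. Slc7a11, the cystine transporter subunit that feeds glutathione synthesis, had 15.7 and 22.3 CPM with scramble and 40.6 and 43.1 CPM in the mutated control. The level was 2.19-fold higher (1.13, SE 0.18, edgeR adjusted p = 0.104, DESeq2 adjusted p = 4.04e-06). The sponge libraries were at 11.6 to 14.4 CPM and the overexpression libraries at 11.99 to 17.5 CPM, so the mutated control pair was far above the other 8. The edgeR adjusted p was 0.0157 without overexpression replicate 1 and 0.0482 without overexpression replicate 3. Cd36, a scavenger and fatty acid receptor, had 559.9 and 569.7 CPM with scramble and 759.0 and 750.1 CPM in the mutated control (0.42, SE 0.07, edgeR adjusted p = 0.104). Ptgs1, the constitutive cyclooxygenase, had 23.7 and 24.8 CPM against 36.3 and 33.99 CPM (0.53, SE 0.08, edgeR adjusted p = 0.0628). Cd36 and Ptgs1 were likewise highest in the 2 mutated control libraries of all 10.

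Further genes of the lipid-associated macrophage list behaved unevenly. Lpl, which frees fatty acids from lipoproteins, had 390.4 and 338.9 CPM with scramble and 576.5 and 659.8 CPM in the mutated control (0.76, SE 0.16, edgeR adjusted p = 0.194). Atp6v0d2, a proton pump subunit, had 3.98 and 4.84 CPM against 8.42 and 8.03 CPM (0.89, SE 0.15, edgeR adjusted p = 0.116). Yet of the 21 tested members only 9 were above 0, with a median of −0.04, and those passed by DESeq2 were 3, all higher (0.197% of all genes). Genes outside that list were named as well, and of these Ece1, Ednrb and Kdr are on the VEGF and angiogenic list. Gpr157, an orphan receptor, had 17.2 and 17.7 CPM with scramble and 24.2 and 23.7 CPM in the mutated control (0.45, SE 0.09, edgeR adjusted p = 0.155). Ece1, which activates endothelin, had the reverse pattern with 53.2 and 56.6 CPM against 35.6 and 37.5 CPM (−0.59, SE 0.08, edgeR adjusted p = 0.0642). Ednrb, an endothelin receptor, had 35.4 and 35.4 CPM against 50.8 and 53.1 CPM (0.55, SE 0.14, edgeR adjusted p = 0.347). Kdr, a VEGF receptor, had 19.0 and 20.7 CPM against 27.1 and 24.99 CPM (0.39, SE 0.09, edgeR adjusted p = 0.233). Of 7 endothelial markers, 3 exceeded 1 CPM in each control library and Clec4g was at 0. Their sum was 158.8 and 184.4 CPM with scramble and 177.7 and 155.6 CPM in the mutated control, so the groups overlapped in that sum. Most of it was Vwf, with 137.1 and 160.6 CPM for scramble and 148.0 and 127.8 CPM for the mutated control. Kdr is itself 1 of the 7 markers, so the sum says little on endothelial genes as a set. The part of endothelial expression in the Kdr and Ednrb values was not tested.

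**Figure D3:**
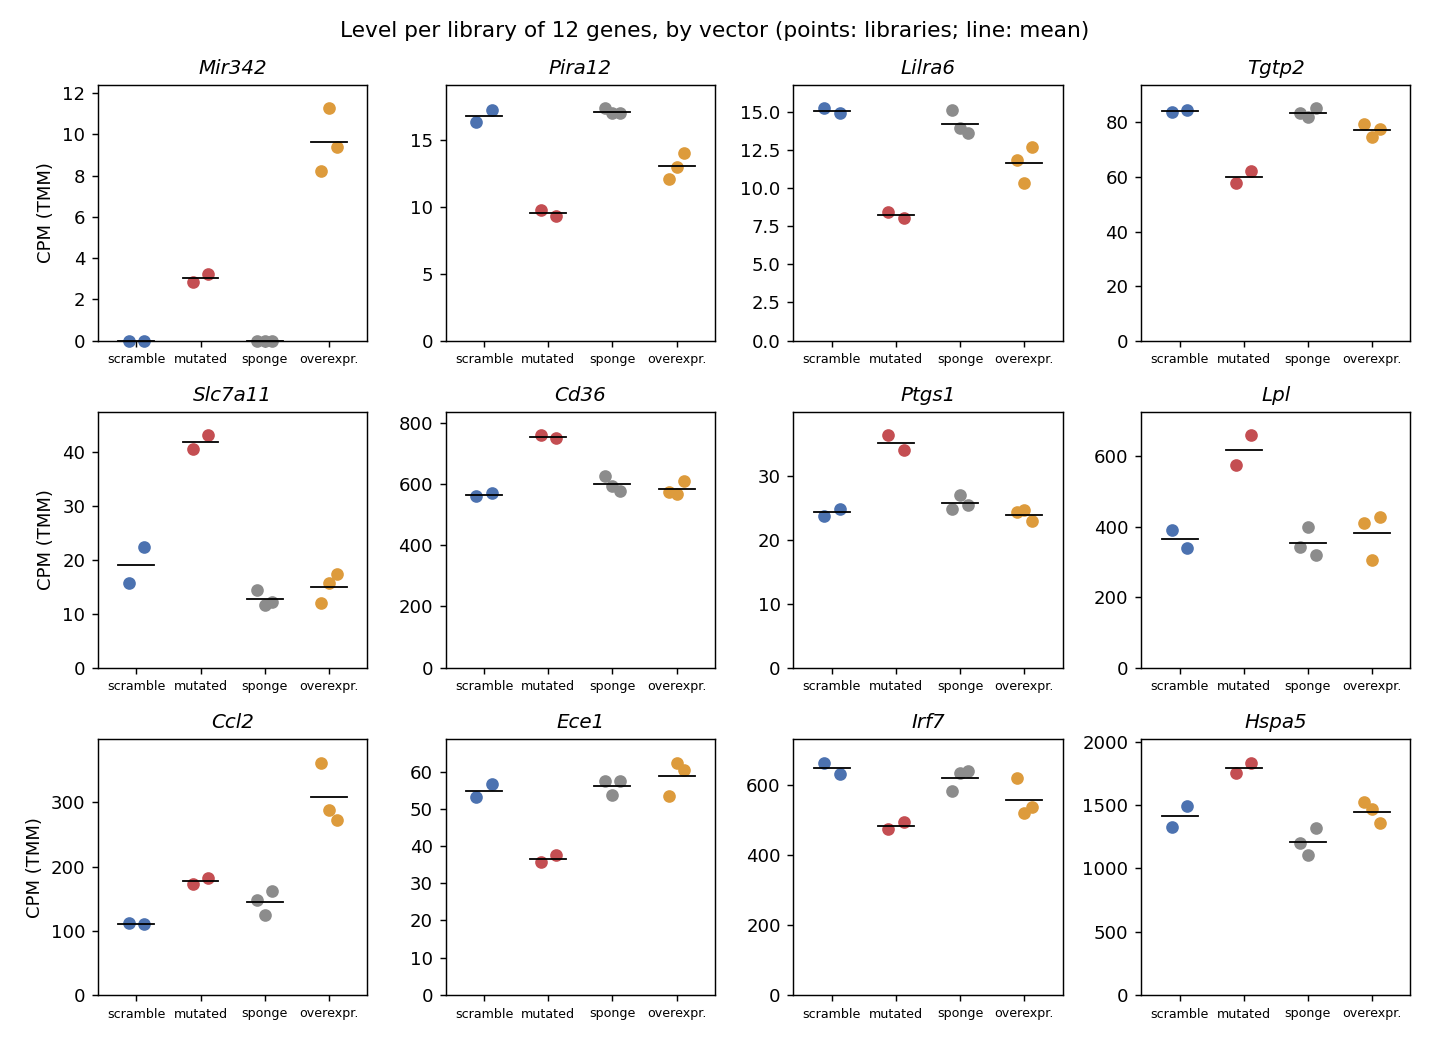
CPM per library (y axis of each panel, from 0) of 12 genes in the 4 vector groups (x axis), with points for libraries and lines for group means. Slc7a11, Cd36, Ptgs1, Lpl and Hspa5 are highest and Pira12, Lilra6, Tgtp2, Ece1 and Irf7 lowest in the 2 mutated control libraries, Mir342 is at 0 in all scramble and sponge libraries, and Ccl2 is highest with overexpression.

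The promoter of Slc7a11 is shown because this gene had the highest fold change among the DESeq2 genes at a mean log2 CPM of 2 or more and is a textbook target of NRF2 and ATF4. The capitals mark TGATGNAA, the core of the element bound by ATF4 and C/EBP, on either strand.
Slc7a11 (chr3:50443564-50443863, minus strand): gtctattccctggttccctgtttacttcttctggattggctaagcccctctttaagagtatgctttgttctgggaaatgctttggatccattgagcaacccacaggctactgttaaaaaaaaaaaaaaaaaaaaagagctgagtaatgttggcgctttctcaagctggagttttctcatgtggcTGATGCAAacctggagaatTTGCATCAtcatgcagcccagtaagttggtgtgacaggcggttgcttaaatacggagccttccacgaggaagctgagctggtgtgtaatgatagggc
There are 2 matches, 1 on each strand, which start 66 and 47 bases before the gene start. The motif stood in 309 of the 10523 tested genes with a promoter (2.9%) and in 7 of 27 of the ATF4 integrated stress list (25.9%). It stood in 1 of 21 promoters of genes that DESeq2 passed as higher (4.8%) and in 3 of 41 of those passed as lower (7.3%). That list had a median of 0.12 with 25 of 31 members above 0, and 0 passed edgeR or DESeq2. Its median was 0.05 without scramble replicate 1 and 0.20 without scramble replicate 2. The NRF2 motif TGACNNNGC was also searched, and the Slc7a11 sequence above holds no match to it on either strand. This motif stood in 1771 of the 10523 promoters (16.8%) and in 10 of 29 of the NRF2 and glutathione list (34.5%). It stood in 6 of the 21 passed as higher (28.6%) and in 8 of the 41 passed as lower (19.5%).

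NRF2 and glutathione genes were mostly higher in the mutated control by small amounts. Of 34 tested members, 23 were above 0 with a median of 0.10, 18 were higher without overlap (24.1% of all genes) and 7 lower (24.2% of all genes). No member passed edgeR and 2 passed DESeq2, both higher (0.197% of all genes). Srxn1, which repairs oxidized peroxiredoxins, had 132.6 and 141.1 CPM with scramble and 172.4 and 179.0 CPM in the mutated control (0.36, SE 0.09, edgeR adjusted p = 0.332). Txnrd1, the thioredoxin reductase, had 434.5 and 464.1 CPM against 519.4 and 547.4 CPM (0.25, SE 0.06, edgeR adjusted p = 0.347). Gclm, a subunit of the enzyme that starts glutathione synthesis, had 214.9 and 234.1 CPM against 254.7 and 278.0 CPM (0.25, SE 0.07, edgeR adjusted p = 0.441). The 3 genes were each highest in the mutated control libraries, as Slc7a11 was, at much smaller fold changes.

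Chaperones of the endoplasmic reticulum, which fold secreted proteins, were nearly all higher in the mutated control. Of 22 tested members, 21 were above 0 with a median of 0.21, 18 were higher without overlap (24.1% of all genes) and none was lower (24.2%), and 10 were highest in the mutated control libraries (6.44%). None passed edgeR or DESeq2, and 11 passed as higher with only the 4 control libraries (1.93% of all genes). Hspa5, the chaperone BiP, had 1327 and 1496 CPM with scramble and 1755 and 1837 CPM in the mutated control (0.35, SE 0.10, edgeR adjusted p = 0.397). Pdia4, a protein disulfide isomerase, had 178.3 and 192.4 CPM against 213.9 and 230.2 CPM, and Dnajb9, a co-chaperone of BiP, had 59.7 and 62.2 CPM against 71.7 and 72.4 CPM. The list's median was 0.15 without scramble replicate 1 and 0.26 without scramble replicate 2, and the same genes had a median of 0.14 in overexpression minus sponge.

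Likeness to Slc7a11 was measured over the 10 libraries. The 5 highest Pearson correlations of log2 CPM among 10320 genes were with Ktn1 (0.967), a membrane protein of the endoplasmic reticulum, Dnajb9 (0.957), Dnajc3 (0.956), another chaperone cofactor, Sec24d (0.944), a coat protein of vesicles that leave this compartment, and Ccdc71l (0.944). The points are 10 libraries of 4 groups, and the 2 mutated control libraries were the highest of the 10 for each of these genes. None of the 5 passed edgeR or DESeq2 between the controls. Sec24d had 85.9 and 93.1 CPM with scramble and 103.9 and 107.4 CPM in the mutated control, and Ktn1 had 56.8 and 60.2 CPM against 63.9 and 65.6 CPM.

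Inflammatory genes were uneven. Ccl2 and Ccl7, which recruit monocytes, had 111.8 and 110.2 CPM and 29.1 and 33.4 CPM with scramble, and 172.6 and 181.8 CPM and 49.9 and 57.5 CPM in the mutated control. Their edgeR adjusted p-values were 0.194 and 0.388, with log2 fold changes of 0.68 (SE 0.14) and 0.78 (SE 0.21), and DESeq2 passed both. Cxcl2, which recruits neutrophils, had 281.2 and 270.3 CPM against 390.5 and 408.6 CPM (0.53, SE 0.13, edgeR adjusted p = 0.327), and Ccl9 had 147.0 and 132.5 CPM against 174.6 and 202.3 CPM (0.43, SE 0.09, edgeR adjusted p = 0.203). Il6 was low and scattered, with 2.74 and 3.83 CPM against 5.21 and 8.30 CPM (1.01, SE 0.27, edgeR adjusted p = 0.352). Tnf had 25.2 and 29.2 CPM against 27.0 and 31.0 CPM, groups that overlapped. Ccl22, a chemokine for T cells, had a negative fold change, with 1.69 and 1.52 CPM against 0.588 and 0.968 CPM (−1.05, SE 0.23, edgeR adjusted p = 0.208). The costimulatory gene Cd86 had 64.9 and 67.2 CPM against 78.7 and 89.3 CPM (0.35, SE 0.12, edgeR adjusted p = 0.636).

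Of 34 cytokine and chemokine genes, 22 were above 0 with a median of 0.10, none passed edgeR and 5 passed DESeq2, all higher (0.197% of all genes). That median was −0.02 without mutated control replicate 2 and 0.25 without replicate 1, so a single library set its sign. Immediate early genes had a like split, with 20 of 26 above 0, a median of 0.17, and 0.04 without mutated control replicate 2 against 0.26 without replicate 1. Egr3, an immediate early factor, shows the split, with 22.2 and 25.8 CPM for scramble and 26.6 and 54.4 CPM for the mutated control. Dusp5, a phosphatase that restrains ERK, had 9.78 and 10.6 CPM against 13.1 and 21.2 CPM. Its list of MAP kinase feedback genes had 17 of 19 above 0 with a median of 0.17. Fosl2, an AP-1 subunit, was steadier at 52.0 and 53.9 CPM against 63.0 and 71.9 CPM (0.35, SE 0.11, edgeR adjusted p = 0.531).

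Ribosomal protein and cell cycle genes mostly had values below 0. All 44 cytosolic ribosomal protein genes were below 0, by a median of −0.10, and 25 were lower without overlap (24.2% of all genes), but none passed edgeR or DESeq2. That median was −0.19 without scramble replicate 2 and −0.02 without scramble replicate 1, so it depended on which scramble library was used. Rpl23 had 491.7 and 416.1 CPM with scramble and 386.0 and 382.8 CPM in the mutated control. Of 35 cell cycle genes, 28 were below 0 with a median of −0.08, which was −0.14 without scramble replicate 2 and −0.04 without scramble replicate 1. Aurkb, a mitotic kinase, was the member with the lowest p, at 92.3 and 85.0 CPM against 68.6 and 64.1 CPM (−0.42, SE 0.07, edgeR adjusted p = 0.125). Atp5b, the catalytic subunit of ATP synthase, had 742.2 and 694.9 CPM against 530.8 and 523.3 CPM, and passed DESeq2 but not edgeR (−0.45, SE 0.10, adjusted p = 0.208). Its own list, the nuclear genes of oxidative phosphorylation, had 17 of 34 above 0 and a median of −0.01. Replication-dependent histones went the other way with 12 of 16 above 0 and a median of 0.18, from 0.10 without mutated control replicate 2 to 0.29 without scramble replicate 2. Only 5 of the 16 had a mean log2 CPM of 2 or more, and their median was 0.03. H1f2, a linker histone, had 43.4 and 41.6 CPM against 62.0 and 54.9 CPM (0.46, SE 0.11, edgeR adjusted p = 0.266).

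**Figure D4:**
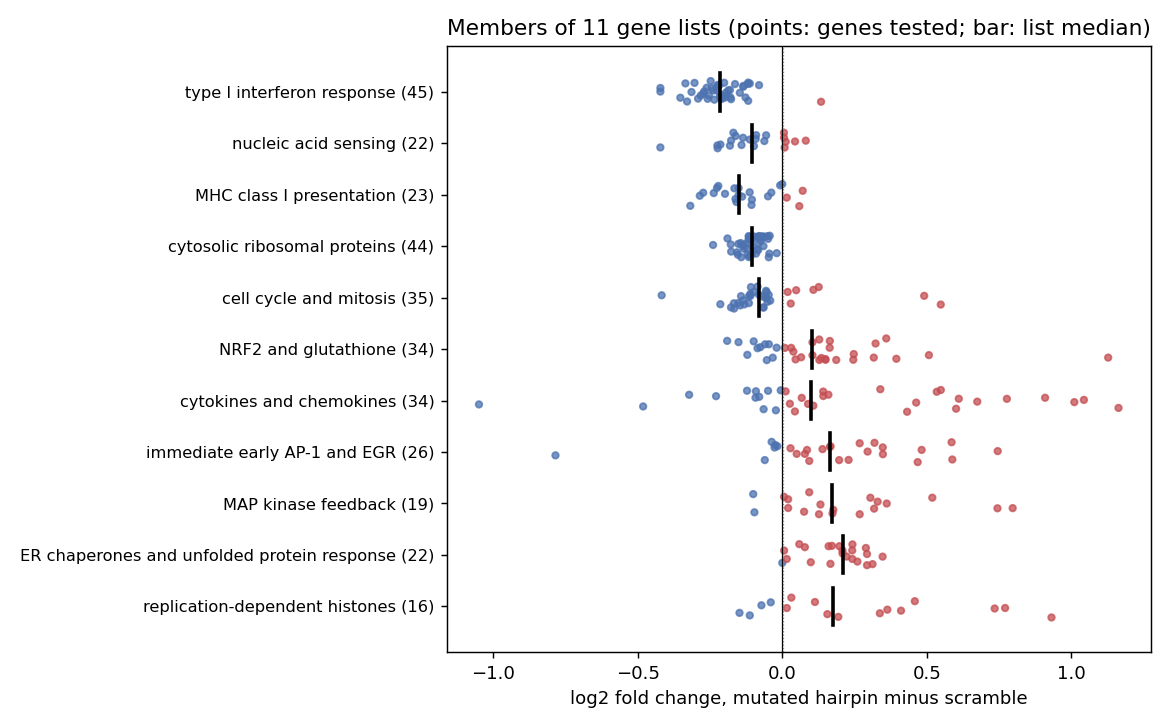
Log2 fold change of the mutated control over scramble (x axis) for each tested member of 11 gene lists (y axis, number tested in brackets), with a bar at the list median. The interferon list, with a median of −0.21, has 1 point above 0 and the chaperone list, with a median of 0.21, has 1 below 0.

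Gene length and level moved with the comparison. When genes were ranked in 5 groups of like size by exonic length, 64.7% of the longest group (6736 bases and over) were above 0, with a median of 0.04, against 45.1% to 49.7% in the other 4. Ranked by mean log2 CPM, 59.0% of the lowest group were above 0, with a median of 0.10, against 42.8% to 51.4% in the other 4. Slc7a11 lies in the longest group, and ribosomal protein genes are short, and the part of length in their values was not tested. The seed of miR-342-3p gives the site GTGTGAG. The 1850 tested genes with this match in the longest annotated 3′ UTR had a median of 0.02 and the 10266 without it had −0.01. Genes with a site had longer UTRs, with a median of 2559 bases against 955. In the longest of 5 UTR length groups, genes with a site had a median of 0.04 and those without had 0.03. The longer 8mer site, GTGTGAGA, stood in 576 of the 12116 tested genes with a UTR. Their median was 0.03 with 59.2% above 0, against 49.0% of all 12116. Their median UTR was 2682 bases, against 1129 for all 12116, and they were not split by UTR length. In the longest UTR length group, 60.5% of genes without a site were above 0. Slc7a11 and Cd36, which were higher, and Ccl22, which was lower, carry the 8mer site. Ednrb, Egr3, Ktn1 and Dnajc3, also named here, carry it too. The part of these sites in their values was not tested.

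A further pair of groups contrasts a hairpin vector with a sponge vector and shares no library with the controls, namely overexpression against the sponge. There the microRNA differs too. In it 121 of 15767 genes passed edgeR (0.767%), 76 higher and 45 lower, and 93 of these (76.9%) had the same sign between the controls, where 53.1% of all genes did. That count ranged from 13 without overexpression replicate 2 to 925 without sponge replicate 3, so calls near the threshold depend on single libraries. The fold changes of the 2 comparisons had a Pearson correlation of 0.19 across genes at a mean log2 CPM of 2 or more, and genes are not independent replicates. Of the 90 genes that DESeq2 passed between the controls, 59 had the same sign there, 18 of 31 higher and 41 of 59 lower, and 8 of the 90 also passed edgeR there.

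Receptor genes and monocyte chemokines were among those with the same sign in both. Pira12 fell with overexpression against the sponge (−0.40, SE 0.07, edgeR adjusted p = 0.0368) and Pirb fell by 0.27 (SE 0.05, edgeR adjusted p = 0.0376). Lilra6 did not pass there (−0.29, SE 0.08, edgeR adjusted p = 0.117), nor did any other gene of the cluster. Of the 8 receptor genes 7 were below 0, with Pira2-ps1 at 0.16. Ccl2 rose by 1.09 (SE 0.11, edgeR adjusted p = 0.00234) and Ccl7 by 1.42 (SE 0.17, edgeR adjusted p = 0.00733). Gbp6 fell by 0.30 (SE 0.06, edgeR adjusted p = 0.0481). Slc7a11 (0.22, SE 0.16), Cd36 (−0.04, SE 0.06) and Lpl (0.11, SE 0.13) did not pass there. Ednrb, higher in the mutated control, fell with overexpression by 0.80 (SE 0.12, edgeR adjusted p = 0.0193). A direct test of whether the 2 hairpin-minus-sponge differences are unequal passed no gene with edgeR or limma-voom, 1271 genes at an unadjusted p under 0.05, and 48 genes with DESeq2. Its edgeR adjusted p was 0.0585 for Ednrb and Gpr157 and 0.406 for Slc7a11.

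**Figure D5:**
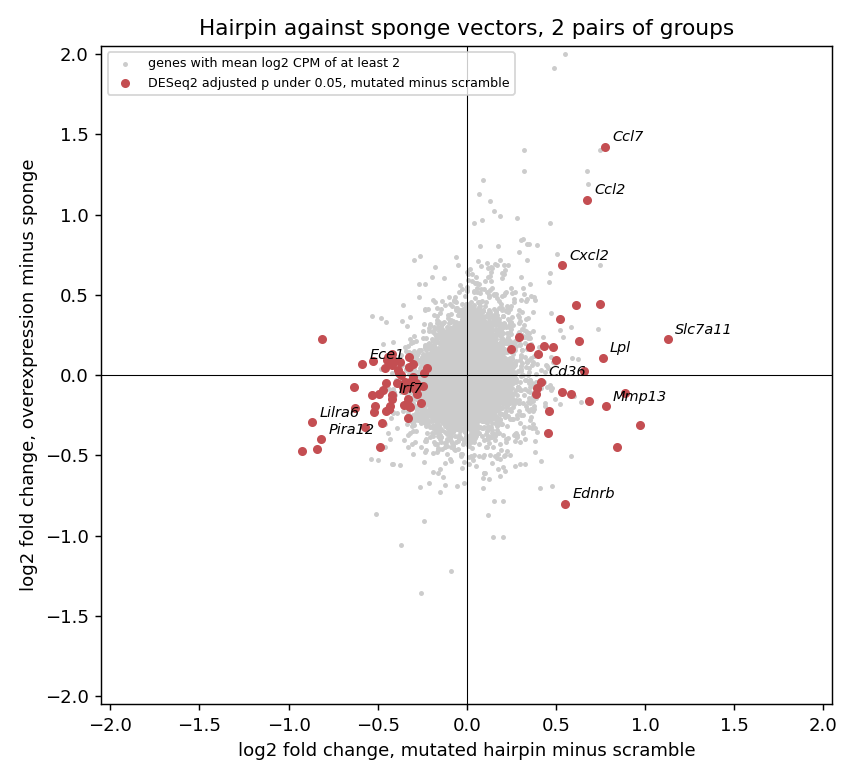
Log2 fold change of overexpression minus sponge (y axis) against mutated control minus scramble (x axis), 2 comparisons without a common library, with 1 point per gene. Grey points are genes at a mean log2 CPM of 2 or more. Red points are the 90 DESeq2 genes of the control comparison at any level, except Mir342, which is left out. Ccl2, Ccl7 and Pira12 share their direction in both, whereas Slc7a11 and Cd36 are near 0 on the y axis and Ednrb is on opposite sides.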

How the data were processed

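The data analysed here are from polyadenylated RNA of 10 libraries, 2 per control group and 3 per other group. The recorded counting command names 12 libraries, more than these 10. In both control groups the library names carry only the numbers 2 and 3. The authors deposited whole-number counts of reads per gene, counted with featureCounts 2.0.1 on the GENCODE vM30 annotation by gene name, with a minimum overlap of 10 bases and without strand, per the file headers. Reads of antisense or overlapping genes cannot therefore be told apart. The submitters' processing notes list STAR 2.7.6a, Subread, Trimmomatic and FastQC 0.11.6 and the build GRCm38, to which vM30 does not belong.

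Lines hold 15 fields under 16 names, since a scramble count is written directly after that of sponge replicate 3. The digits were parted by the gene's expected share in intact libraries under a negative binomial model (dispersion 0.1), and a gene stayed if its best parting had at least 100 times the likelihood of any other. This left out 51 of 55866 genes. In 7 pairs of intact libraries joined on purpose, at least 99.9642% of genes were split rightly. The last field is the other scramble library, so the group is certain and the replicate number is not.

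Genes were tested with edgeR 4.0.16 (robust quasi-likelihood fit, TMM factors, genes filtered by filterByExpr) in R 4.3.3, with all 10 libraries in 1 fit of 6 residual degrees of freedom and Benjamini-Hochberg adjustment over 15767 genes. SE, the standard error, was taken as the absolute log2 fold change divided by the root of F. Levels are CPM computed here with TMM factors. Floors cover counting error only. Alternatives were DESeq2 1.42.0 (adjusted p not given for 4280 genes), limma-voom (limma 3.58.1), other factors and filters, replicate blocks, other splits, the 4 control libraries alone and each library left out. The test was also run on simulated counts, with an outcome that is not reported here. Those counts were drawn with the same spread in all groups, unlike the measured groups, so they cannot show how the unequal spread affects the test.

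Groups not overlapping means that both libraries of one control lie above both of the other. Seed sites were searched in the longest 3′ UTR of protein-coding transcripts of GENCODE vM21 (12116 tested genes) and motifs in RefSeq promoters of 300 bases. The members and gene lists were chosen with earlier results of these data known. Named genes were a fixed set around the microRNA and inflammation, the called genes, the smallest p to make 5 per direction, up to 4 per list by p, and the 5 genes most like Slc7a11. The receptor cluster was added after seeing the data. Some results that the rule gives are not reported here.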

Additional observations from a re-analysis of the deposited data

How the results depend on the processing

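Between the controls the count of 4 called genes was 3 with RLE or upper quartile factors, at a mean log2 CPM of 2 or more and with a 1.5-fold minimum, and 4 with limma-voom, without the robust fit and with either other split. It was 149 of 29774 without a filter, 90 with DESeq2 and 574 with only the control libraries, and all 4 genes were among each of these. Leaving out 1 library gave 0 (scramble replicate 2) to 36 (overexpression replicate 1). For overexpression minus sponge the count of 121 was 1155 without a filter, 69 at a mean log2 CPM of 2 or more and 658 with DESeq2, and 13 (overexpression replicate 2) to 925 (sponge replicate 3) with 1 library left out. The difference of the 2 comparisons, 0, was 2 with upper quartile factors, 331 without a filter, 2 at a mean log2 CPM of 2 or more, 48 with DESeq2 and 0 to 7 with 1 library left out. With the replicate block the 3 counts were 1, 24 and 0, and with the replicate block by library number 1, 27 and 0. By replicate number, the correlation of deviations was −0.024 for same-numbered controls and ran from −0.842 to 0.465 over all 13 same-numbered pairs. It exceeded 0.1 in 3 of these 13, and in 1 of 13 by library number. With control groups of 2 and an uncertain scramble replicate number, these values cannot show whether samples were paired. Of 63 single genes, 61 kept their sign in every setting that tested them. Evl (−0.01) ran from −0.07 to 0.05 with 1 library left out, turning to 0.01 without scramble replicate 2 and 0.05 without mutated control replicate 1. Tnf (0.09) ran from −0.02 to 0.20, turning to −0.01 without scramble replicate 1 and −0.02 without mutated control replicate 2. The cause of these shifts was not tested. Groups of 2 limit what can be shown: an exact permutation test of 2 against 2 cannot go below p = 0.333, so calls rest on the spread pooled over all groups.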
